A study of Caenorhabditis elegans with 2 samples.

Results

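The regions described here are 279 strong PAT-9 ChIP-seq regions that lie in divergent promoters, stretches of sequence shared by 2 protein-coding genes that are transcribed away from each other. They were chosen by the authors' signal value and by position. The 3000 regions with the highest signal in the list called on both replicates together (the pooled list, 30000 regions) were taken as strong. A strong region was kept when its summit, the position of its highest signal, lay upstream of and within 1000 bp of the 5′ ends of coding transcripts on both strands. Summits at genes for small RNAs (rRNA, tRNA, snRNA and snoRNA, up to 200 bp away) were left out. Of the 3000 strong regions 279 (9.30%) met the rule. A further 901 lay upstream of genes on 1 strand only and are called single-gene regions below, 362 lay near a small RNA gene, and 1458 fitted none of these. In the pooled list 724 weaker regions, ranked below 3000, met the same rule of position.

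The chromatin came from Caenorhabditis elegans of strain RW12085, as whole embryos at a late stage, with both sexes together and an age label of 3 hours, obtained by bleaching. The 2 biological replicates form 1 group, with nothing to compare it with, so the data describe where the precipitate was enriched and not how it changes. The label of the strain gives a CRISPR insertion of mNG with 3xFlag at the pat-9 locus, other fields give a GFP fusion, the precipitation is said to have used anti-GFP, and the antibody field reads pat-9. These fields cannot all hold, and which protein tag was precipitated is not settled here. Whole embryos were used, so no region can be assigned to a cell type. Read depth is unknown from the files, and every region in the lists is the authors' call before or after their reproducibility filter.

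PAT-9 is a C2H2 zinc finger protein that C. elegans embryos need to build body wall muscle. In a divergent promoter the nucleosome-depleted stretches of both genes lie close together or merge, and one stretch of open sequence can serve both directions of transcription. In the compact worm genome many broadly expressed genes lie head to head in this way. Strong ChIP regions at active promoters can appear for many factors, so a region upstream of a gene does not show that the factor controls it.

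The sequences below run from 50 bp to the left to 50 bp to the right of the summit, on the plus strand of ce11 (WBcel235), read from the matching RefSeq assembly. The first 6 are the strongest regions off the first chromosome whose window overlaps no annotated exon, and their words played no part in the choice. Capitals mark any of the 10 words of 6 letters that were most in excess at the summits over the flanks, on either strand, or the GC box CCGCCC. The words are given with their shares further on, and several overlap one another.
ecps-1/atx-2, chrIII:10461258-10461358: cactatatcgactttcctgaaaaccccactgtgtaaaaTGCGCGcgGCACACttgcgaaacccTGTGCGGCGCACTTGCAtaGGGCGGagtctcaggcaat
K01G5.10/tasp-1, chrIII:10759188-10759288: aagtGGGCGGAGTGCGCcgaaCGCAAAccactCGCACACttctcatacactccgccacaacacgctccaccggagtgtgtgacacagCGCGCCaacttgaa
rpl-15/K11H12.8, chrIV:654861-654961: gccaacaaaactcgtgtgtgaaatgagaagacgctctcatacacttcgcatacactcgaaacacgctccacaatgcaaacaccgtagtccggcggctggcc
nmad-1/hach-1, chrIII:5555072-5555172: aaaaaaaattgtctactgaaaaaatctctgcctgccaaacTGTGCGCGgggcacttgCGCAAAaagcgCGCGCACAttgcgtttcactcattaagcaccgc
gei-6/krr-1, chrV:7230992-7231092: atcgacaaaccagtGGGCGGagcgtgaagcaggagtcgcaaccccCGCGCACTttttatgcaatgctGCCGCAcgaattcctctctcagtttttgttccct
Y22D7AL.10/hsp-60, chrIII:1619050-1619150: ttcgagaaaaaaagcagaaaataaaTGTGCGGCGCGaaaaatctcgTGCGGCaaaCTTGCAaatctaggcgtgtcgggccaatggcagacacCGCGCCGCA
The window at ecps-1/atx-2 holds 7 of the 10 words and that at K01G5.10/tasp-1 holds 6, while that at rpl-15/K11H12.8 holds none. The GC box, written on the plus strand as GGGCGG in these windows, is in the windows of ecps-1/atx-2, K01G5.10/tasp-1 and gei-6/krr-1.

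The next 4 windows are those of the strongest remaining regions, off the same chromosome and clear of exons, that hold the leading word GCGCAC (or GTGCGC on the other strand). They show how its setting varies.
B0495.9/sre-1, chrII:7708718-7708818: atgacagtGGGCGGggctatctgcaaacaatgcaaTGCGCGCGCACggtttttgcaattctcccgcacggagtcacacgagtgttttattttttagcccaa
larp-1/wip-1, chrIII:5018299-5018399: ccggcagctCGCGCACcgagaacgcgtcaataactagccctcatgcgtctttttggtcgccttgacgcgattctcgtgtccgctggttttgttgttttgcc
dvc-1/ima-1, chrV:11239363-11239463: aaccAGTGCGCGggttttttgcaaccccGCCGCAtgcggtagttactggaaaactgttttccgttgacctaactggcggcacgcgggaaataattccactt
mrg-1/spcs-2, chrIII:12874831-12874931: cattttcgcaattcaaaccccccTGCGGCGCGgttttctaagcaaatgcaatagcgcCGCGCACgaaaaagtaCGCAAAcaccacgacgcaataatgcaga
In B0495.9/sre-1 the leading word overlaps the end of an alternating run of G and C, and in mrg-1/spcs-2 it lies near a further 4 of the words. A match is a string of letters only, and no binding motif of PAT-9 was used.

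The pooled signal of the 279 regions, which chose them, had a median of 87.0 (quartiles 69.5 and 123) and ran from 59.6 to 499. The sources used here do not give the scale of this value. The single-gene regions had a median of 76.9, and the weaker divergent regions one of 34.9. The threshold fell in a continuous run of values. The 3 regions just inside it were those of rpl-1/Y71F9AL.9 at 59.55, C01A2.1/W05H12.4 at 59.59 and cap-1/D2024.4 at 59.64. Just outside were a region of rpl-12/lin-54 at 59.32, one of mrps-17/txdc-9 at 58.6 and one of Y69E1A.5/sri-19 at 58.1. The pair rpl-12 and lin-54 also has a strong region, at rank 194, so the list can hold more than 1 region for 1 promoter.

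The strongest region, at rank 10 of the pooled list, lay in 92 bp between the 5′ ends of ears-2, which encodes a mitochondrial glutamyl-tRNA synthetase, and uncp-18, which encodes a syntaxin-binding protein. Its signal was 499 in the pooled list, 202 in replicate 1 (rank 9) and 299 in replicate 2 (rank 15). The region of ecps-1, a proteasome-associated Ecm29 homolog, and atx-2, an ataxin-2 homolog, had a pooled signal of 458, with 197 in replicate 1 (rank 11) and 265 in replicate 2 (rank 26). The region of K01G5.10 and tasp-1, a taspase homolog, had 453, with 148 in replicate 1 (rank 31) and 307 in replicate 2 (rank 13). All 3 were among the 31 highest regions of each replicate. In the regions of atx-2 and tasp-1 the summit lay near 1 start, 81 bp from atx-2 and 757 bp from ecps-1, and 69 bp from tasp-1 and 716 bp from K01G5.10.

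Further regions among the 20 strongest lie at genes for mitochondrial proteins. The region of mlcd-1, a malonyl-CoA decarboxylase, and idhg-1, a subunit of isocitrate dehydrogenase, had a pooled signal of 394, with 170 in replicate 1 (rank 16) and 218 in replicate 2 (rank 39). The region of nmad-1, a DNA N6-methyladenine demethylase, and hach-1, a mitochondrial 3-hydroxyisobutyryl-CoA hydrolase, had 339, with 138 (rank 43) and 202 (rank 49) in replicates 1 and 2. The mitochondrial chaperonin hsp-60 shares its region with Y22D7AL.10, annotated as the 10 kDa mitochondrial heat shock protein that caps the chaperonin. Its pooled signal was 293, with 106 in replicate 1 (rank 87) and 187 in replicate 2 (rank 66), and the summit lay 171 bp from Y22D7AL.10 and 642 bp from hsp-60. The region of dnj-29, a J domain chaperone, and ndua-2, a subunit of complex I, had 269, with 112 (rank 74) and 159 (rank 113), and fld-1 also has a 5′ end within reach of it. These regions ranked in the first 113 of each replicate.

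Others of the 20 strongest lie at genes of translation and RNA processing. The region of rpl-15, a protein of the large ribosomal subunit, and K11H12.8 had a pooled signal of 353, with 101.1 in replicate 1 (rank 98) and 251 in replicate 2 (rank 29). The region of gei-6 and krr-1, a component of the small subunit processome, had 294, with 118 (rank 63) and 176 (rank 79). The region of larp-1, a La-related RNA-binding protein, and wip-1 had 251, with 73.8 in replicate 1 and 171 in replicate 2 (rank 88). The region of rpl-20 and Y17G9B.5 had 230, with 86.1 (rank 148) and 139 (rank 149). For rps-19 and hsr-9 the values were 218 in the pooled list, 46.6 in replicate 1 (rank 614) and 164 in replicate 2. For snx-13, a sorting nexin, and snr-1, the SmD3 protein of the spliceosome, they were 216, 99.8 (rank 103) and 117 (rank 220). Of the 20 strongest, rps-19/hsr-9 stood lowest in replicate 1.

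The other members of the 20 strongest had pooled signals from 229 to 328. They lie between spe-48 and Y51F10.11 (328), rnf-121 and C16C10.4 (288), B0495.9 and the chemoreceptor gene sre-1 (286), E04F6.6 and pcrg-1 (271), dad-1, a subunit of the oligosaccharyltransferase, and the trehalase gene tre-1 (263), algn-13, which acts in N-glycosylation, and R10D12.13 (245), and pvf-1, a gene of the PDGF and VEGF family, and Y39A3CL.7 (229). The summits at E04F6.6/pcrg-1 and dad-1/tre-1 lay within 200 bp of a noncoding RNA gene of another kind, mrpr-1 and F57B10.17. Among all 279 regions 43 (15.4%) lay that close to such a gene, against 145 of the 901 single-gene regions (16.1%).

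Both replicates entered the pooled list, so their ranks describe the regions and are no separate test. Of the 279 regions 193 (69.2%, 95% Wilson interval 63.5% to 74.3%) overlapped one of the strongest 3000 regions of replicate 1, against 535 of the 901 single-gene regions (59.4%, 56.1% to 62.5%). For replicate 2 the counts were 235 (84.2%, 79.5% to 88.0%), against 689 (76.5%, 73.6% to 79.1%). Over all 30000 pooled regions 12.5% overlapped the strongest 3000 of replicate 1, and the share was again 12.5% for replicate 2. Since the rule used the pooled signal of the same reads, nothing is read from the distance to these shares. These intervals and those below cover counting error only, with regions treated as independent. In both replicates 164 regions (58.8%) ranked in the strongest 3000, 29 did so in replicate 1 only, 71 in replicate 2 only, and 15 (5.38%) in neither.

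The median rank of the 279 regions was 1541.5 in replicate 1 (quartiles 569 and 3283) and 1061.5 in replicate 2 (quartiles 475 and 1997). In replicate 1, 9 of the regions overlapped no listed region, and in replicate 2 it was 1. Of the 269 with a region in both, 148 ranked higher in replicate 2, and for 26 the ranks differed by more than 10 times. The lowest ranks were 28770 in replicate 1, at atp-5/lmtr-3, and 18687 in replicate 2. The region of npp-14, a nuclear pore protein, and cel-1 ranked 2106 in replicate 1 and 143 in replicate 2. By pooled signal, all 93 strongest regions were in the strongest 3000 of replicate 2 and 91 were in that of replicate 1. Of the weakest 93 regions 57 and 37 were, and 16 were in both. Regions with a higher pooled signal lie further inside a fixed cut of 3000. Nothing about agreement is therefore read from this order. The authors' optimal list, which passed their reproducibility filter, holds 105 of the 279 regions (37.6%, 32.2% to 43.5%) and 205 of the 901 single-gene regions (22.8%, 20.1% to 25.6%), against 2.45% of all pooled regions. The optimal list is the strongest 735 of the pooled list, so this too follows the signal that chose the regions.

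**Figure D1:**
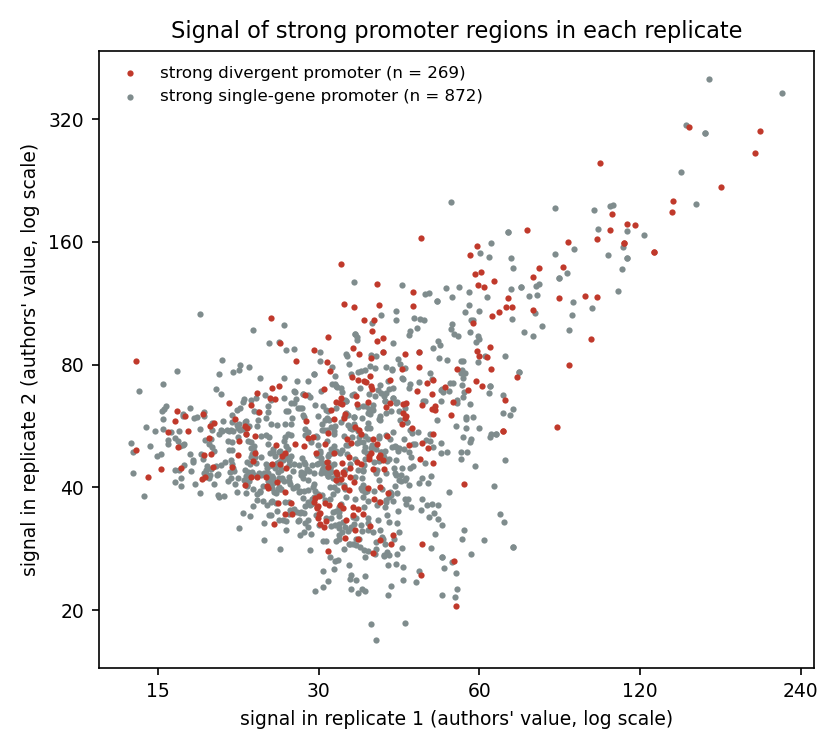
Signal of each strong promoter region in replicate 1 (x axis) and replicate 2 (y axis), both the authors' values on log scales, for the 269 strong divergent regions (red) and the 872 single-gene regions (grey) with a listed region in both replicates. The points run along a diagonal at high signal and form a broad cloud below about 60 in replicate 1.

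The share of regions that lay in divergent promoters fell along the pooled list. It was 14.8% of ranks 1 to 250 (37 regions, 10.9% to 19.7%) and 14.8% of ranks 251 to 500, 9.60% of ranks 1001 to 1500, 4.2% of ranks 2501 to 3000 and 2.34% of ranks 20001 to 30000 (2.06% to 2.66%). The share that lay at single-gene promoters did not run the same way, with 18.8% of ranks 1 to 250, 35.2% of ranks 1001 to 1500 and 21.9% of ranks 20001 to 30000. Among promoter regions of both kinds, divergent ones made up 44.0% (33.9% to 54.7%) of those in the first 250 ranks, 27.9% in the first 1500, 23.6% (21.3% to 26.2%) in the first 3000 and 12.3% over the whole list. The first 250 ranks also hold 134 regions near small RNA genes, which lowers the share of each promoter class there.

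**Figure D2:**
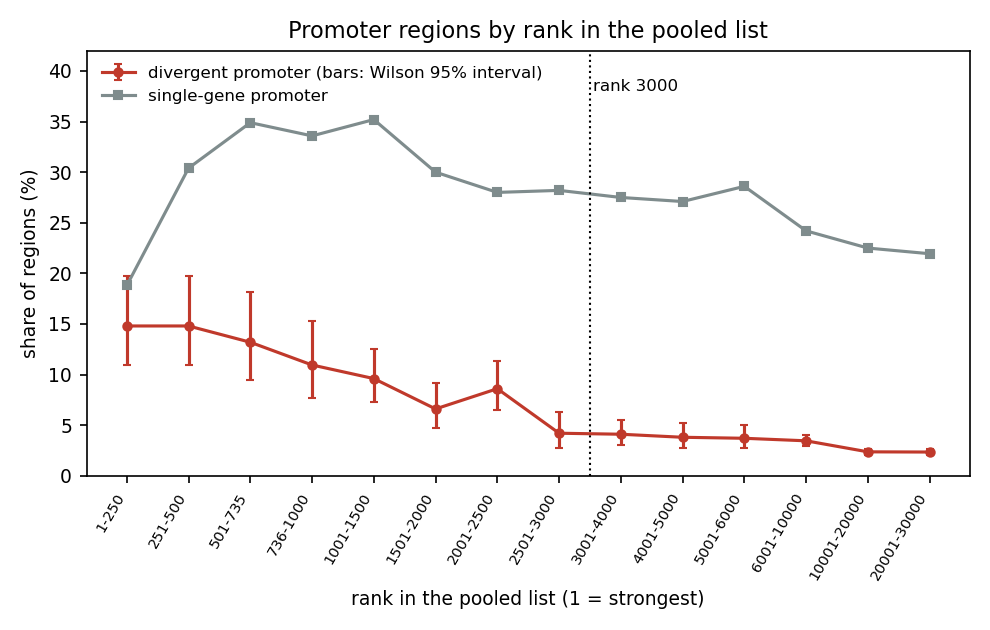
Share of pooled regions in each bin of rank (x axis, 1 is the strongest) that lay in a divergent promoter (red, bars are Wilson 95% intervals) or a single-gene promoter (grey). The divergent share is 14.8% in the first 2 bins and 2.34% in the last one, and the dotted line marks rank 3000.

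Sequence that meets the rule of position is scarce. It came to 1.70 Mb, or 1.70% of the genome, and held 279 strong summits, or 164 per Mb. Single-gene upstream sequence came to 20.6 Mb and held 43.8 strong summits per Mb, and sequence of neither kind, away from small RNA genes, held 18.8 per Mb. The densest class was sequence within 200 bp of a small RNA gene, with 676 per Mb. Of all pooled regions in divergent sequence 27.8% were strong, against 12.6% of those in single-gene upstream sequence and 54.9% of those near small RNA genes. Divergent sequence lies closer to 5′ ends than single-gene sequence by construction, and the part of that distance in these densities was not tested.

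Facing starts were also counted as promoters. There are 2711 places in the annotation where neighbouring coding 5′ ends point away from each other at most 2000 bp apart. A strong summit lay in 253 of them (9.33%, 8.29% to 10.5%) and a pooled region of any rank in 769 (28.4%). With starts less than 250 bp apart 5.42% held a strong summit, with 250 to 500 bp 15.8%, with 500 to 750 bp 14.0% and with 750 to 1000 bp 11.3%. Beyond 1000 bp the rule itself bars part of the interval, and the shares were 5.03% and 0.590%. Of the 279 regions 257 lay between such neighbouring starts. In the other 22 the nearest coding start on at least 1 side pointed the other way.

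The 279 regions have 274 distinct nearest pairs of genes and lie upstream of 563 genes in all, with 16 regions upstream of more than 2 genes. The 5 pairs with 2 regions each are E04F6.6/pcrg-1, T10B5.4/cct-7, ddx-46/F53H1.4, dnj-29/ndua-2 and supr-1/dnj-28. Both nearest genes have a gene name in 140 regions, 1 of them in 119 and neither in 20, and 71.6% of the 563 genes are named, against 57.4% of the 5818 coding genes with a facing neighbour.

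The nearer of the 2 starts was a median of 155 bp from the summit (quartiles 84.5 and 245.5) and the farther one 365 bp, with 538 bp between them (quartiles 361.5 and 815). For the weaker divergent regions the medians were 182.5 bp, 561 bp and 740.5 bp. The nearer start lay within 300 bp in 244 of the 279 strong regions (87.5%, 83.1% to 90.8%), against 504 of the 724 weaker ones (69.6%, 66.2% to 72.9%). In single-gene regions, where there is only 1 start to be near, the median was 296 bp for strong and 422 bp for weaker regions. Both starts were within 300 bp in 105 of the strong divergent regions (37.6%), against 165 of the weaker (22.8%). The summit lay inside an annotated coding transcript in 34 regions (12.2%), against 29.2% of the single-gene regions.

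Summits leaned to the middle of the gap but were not fixed to the midpoint. Measured from the minus-strand start, at 0, to the plus-strand start, at 1, the median position was 0.517 (quartiles 0.328 and 0.70), against 0.523 for the weaker divergent regions. When the gap was cut in 3 equal parts, 126 summits (45.2%) lay in the middle one, against 45.3% of the weaker regions. The summit was nearer the minus-strand start in 132 regions and nearer the plus-strand start in 147. In gaps under 500 bp (120 regions) the nearer start was a median of 103 bp away, in gaps of 500 to 1000 bp (124 regions) 209.5 bp, and in wider gaps (35 regions) 290 bp. At hsp-16.2/hsp-16.41, a head-to-head pair of small heat shock genes, the summit lay 5 bp from hsp-16.41 and 216 bp from hsp-16.2.

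**Figure D3:**
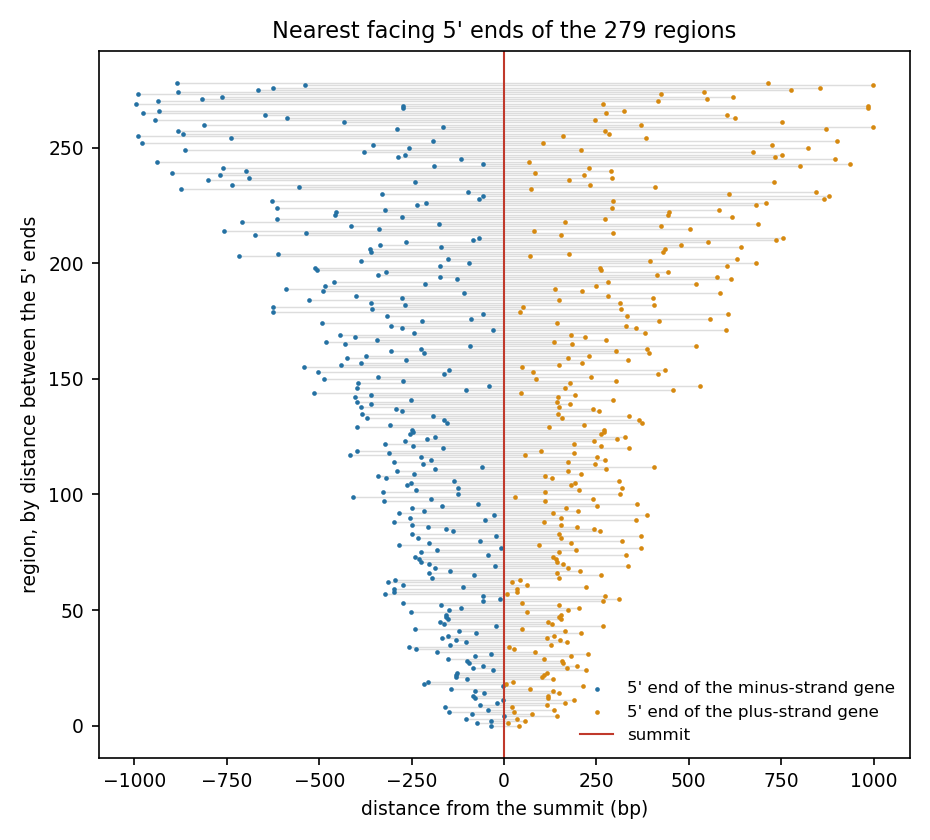
Nearest 5′ end of the minus-strand gene (blue) and of the plus-strand gene (orange) for each of the 279 regions, as the distance from the summit in bp (x axis), with regions ordered by the distance between the 5′ ends. In wide gaps the summit is often off centre, and the limit of 1000 bp on either side is part of the rule.

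The members were spread unevenly over the chromosomes. Chromosome III held 71 of them (25.4%), chromosome I 70 (25.1%), IV 48, II 45, V 38 and X only 7 (2.51%, 1.22% to 5.09%). Of the single-gene regions 215 of 901 (23.9%, 21.2% to 26.8%) were on X. Divergent sequence is rare on X: it makes up 0.549% of X and 1.94% of the autosomes, and 5.71% of all divergent sequence lies there. Per Mb of divergent sequence there were 72.0 strong summits on X and 169 on the autosomes. Per Mb of single-gene sequence the order was the other way round, with 68.4 on X and 39.4 on the autosomes. Among autosomes the density in divergent sequence ran from 84.5 per Mb on V to 274 per Mb on III. Of the 187 facing starts on X 7 held a strong summit (3.74%, 1.82% to 7.52%), against 246 of 2524 on the autosomes (9.75%, 8.65% to 10.97%). The low share was not particular to X, since on chromosome V it was 32 of 684 (4.68%, 3.33% to 6.53%). Whether the X and autosome lists differ in the kind of gene was not tested.

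The 7 regions on X are named here after their values were seen. They are mboa-7/git-1 at rank 343 (pooled signal 144), trap-2/ile-2 at 415 (130), dnj-14/glit-1 at 858 (94.0), rga-8/hst-6 at 1010 (88.3), C34F6.7/idh-2 at 1381 (77.9), C31E10.5/C31E10.6 at 2025 (67.5) and pifk-1/tbc-11 at 2396 (63.9). The strongest, mboa-7/git-1, ranked 314 in replicate 1 and 422 in replicate 2, and trap-2/ile-2 ranked 251 and 733. The gene trap-2 encodes a subunit of the translocon-associated complex and idh-2 an isocitrate dehydrogenase. The lowest, pifk-1/tbc-11, ranked 4732 in replicate 1 and 4416 in replicate 2, outside the strongest 3000 of both.

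Base composition was not part of the rule. The window of 50 bp to either side of the summit had a median GC content of 47.5% (quartiles 40.6% and 51.5%), against 47.5% in single-gene regions, 38.6% in weaker divergent regions and 40.6% over all pooled regions. Flanking windows of the same length 200 bp to either side had 34.7%, against 37.6% for the single-gene regions. The summit was richer in GC than the mean of its flanks in 234 of the 279 regions (83.9%), against 80.6% of single-gene and 57.5% of weaker divergent regions. The window held a mean of 6.89 CG dinucleotides, against 5.998 in single-gene regions and 4.72 in weaker divergent regions. The profile across the summit was narrower than that of the single-gene regions. In 21 bp at the summit mean GC was 47.5% in strong divergent and 48.3% in single-gene regions, and at 100 bp to the left and right it was 34.1% and 32.5% in strong divergent regions, against 41.6% and 41.7% in single-gene regions.

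**Figure D4:**
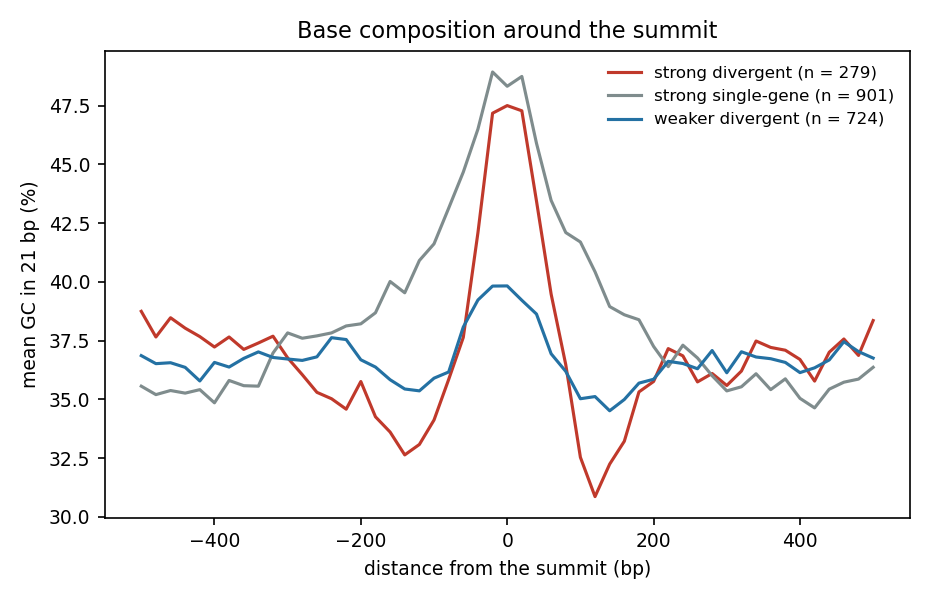
Mean GC content in 21 bp steps (y axis, %) by distance from the summit in bp (x axis) for 279 strong divergent (red), 901 single-gene (grey) and 724 weaker divergent regions (blue). The peak of the strong divergent regions drops to 34.1% and 32.5% at 100 bp on either side, while that of the single-gene regions is still at 41.6% and 41.7%.

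Fixed motifs were searched on both strands of the same windows. They were chosen with earlier results of these data known, so their shares describe the regions and are no separate test. The GC box CCGCCC was in 34 of the 279 regions (12.2%, 8.85% to 16.5%), in 1.97% of their flanks, in 9.32% of single-gene regions, in 3.87% of weaker divergent regions and in 3.94% of all pooled regions. CGCCGC was in 14.7% of the regions and 3.05% of flanks, and the alternating GCGCGC in 9.32% and 1.08%. CGCGCA was in 14.3% and 1.97%. The GA repeat GAGAGA was in 14.3% of the regions (10.7% to 18.9%) and 5.56% of flanks, but in 25.6% of single-gene regions (22.9% to 28.6%). Without replicate 2 it was in 14.8% of the strong divergent regions, against 18.8% of single-gene regions. A run of 6 T was in 36.6% of the strong divergent regions and 40.5% of their flanks, against 20.9% of single-gene regions and 38.7% of their flanks. It was in 39.4% of weaker divergent regions and 34.3% of all pooled regions, so the single-gene summits are the low ones here. Without replicate 2 it was in 39.1% of the strong divergent regions, against 27.2% of single-gene regions. All of these shares follow base composition in part, and that part was not tested.

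Motifs rich in A and T were rarer at the summit than in the flanks. TATAAA was in 5.02% of the regions and 10.2% of flanks, the GATA site AGATAA in 2.15% and 6.63%, the Hox and PBX form TGATNNAT in 3.58% and 7.17%. CCAAT was in 12.9% and 14.3%, and the E box CACGTG in 1.79% and 1.97%. The E box CAGCTG, the form that myogenic bHLH factors are known to bind in vertebrates, was in 4.66% of the regions and 1.97% of flanks, with 4.77% in single-gene regions. TGACGT was in 5.02% and 1.97%, and CTGCGTCT in 2.87% and 0.358%, with 6.22% in single-gene regions. Without replicate 2 the share of the regions with TATAAA was 8.26%, that with CAGCTG 3.04% and that with TGACGT 3.04%. CCATATGG, a form of the serum response element core, was found in 0 of the 279 windows.

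Among all 2080 words of 6 letters, with both strands joined, those most in excess at the summits over the flanks were the 10 marked in the windows printed above. GCGCAC led, with 51 of 279 regions (18.3%) and 1.97% of flanks, against 9.43% of single-gene, 5.66% of weaker divergent and 3.14% of all pooled regions. ACGCGC was in 16.8% of the regions and 1.79% of flanks, and GCACAC in 17.6% and 2.51%. CGCGCC was in 15.1% and 1.97%, AGTGCG in 14.0% and 1.25%, CGCACA in 15.8% and 3.23%, and GCCGCA in 14.7% and 2.15%. CGCGCA, given above, was the last of the 10. CTTGCA was in 15.4% of the regions and 3.05% of flanks, against 5.99% of single-gene regions, and CGCAAA in 19.0% and 6.27%, against 9.77% of single-gene regions. The words most depleted were rich in A and T, led by TTAAAA with 16.1% of the regions and 35.8% of flanks. At least 1 of the 10 words was in 177 of the 279 regions (63.4%), in 19.4% of their flanks, in 46.7% of single-gene regions and in 24.4% of all pooled regions. The words were picked on these 279 regions, by the difference between summit and flank. The first of these shares is therefore high and the flank share low by that choice. For each single word, in excess or depleted, the gap between regions and flanks is likewise large by that choice.

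Within the members, composition varied with signal. The 93 strongest had a median GC content of 49.5%, the next 93 one of 46.5% and the weakest 93 one of 41.6%. The GC box was in 22 of the 93 strongest (23.7%), in 9 of the next (9.68%) and in 3 of the weakest (3.23%). The GA repeat was in 12, 14 and 14 of them and the run of 6 T in 32, 29 and 41. The distance between the starts had medians of 527, 541 and 574 bp in the same order, and the distance to the nearer start 148, 172 and 152 bp. The regions on X numbered 2, 3 and 2.

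Gene lists were read against the coding genes with a facing neighbour, meaning an oppositely oriented coding gene whose 5′ end lies upstream at most 2000 bp away. Of 5818 such genes 563 (9.68%) had a strong divergent region. Lists of protein synthesis and folding were above that share. So were those of chromatin, the nuclear pore, splicing, the respiratory chain, the cell cycle, RNA polymerases and Mediator, and vesicle transport. Those of the chemoreceptors, C-type lectins, cuticle collagens and nuclear hormone receptors were below it. The ubiquitin pathway, at 13.9%, had an interval that includes the share of all such genes (6.08% to 28.7%). The shares are descriptions: pairs share a region, lists differ in gene spacing, and no test of the lists was made.

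Of the chaperone genes with a facing neighbour 21 of 48 (43.8%, against 9.68% of all) had a strong divergent region. They were led by hsp-60 (rank 69) and dnj-29 (rank 93), followed by cct-8 (rank 291, pooled signal 160) and cct-5 (rank 494, signal 120), which encode subunits of the cytosolic chaperonin. The count includes 6 of the cct genes, which are cct-1, cct-2, cct-5, cct-6, cct-7 and cct-8. The Hsp90 gene hsp-90 ranked 2217 (signal 65.5), with rank 14741 in replicate 1, and the mitochondrial Hsp70 gene hsp-6 ranked 1206 (signal 81.7). The pair hsp-16.2/hsp-16.41 had a signal of 114 in the pooled list, 37.6 in replicate 1 (rank 1259) and 71.0 in replicate 2 (rank 607).

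Of the cytoplasmic ribosomal protein genes with a facing neighbour 23 of 53 (43.4%, against 9.68% of all) had such a region. After rpl-15, rpl-20 and rps-19 came rpl-12, whose region is shared with lin-54, a DNA-binding subunit of the DRM complex (rank 194, signal 194). That region had 57.5 in replicate 1 (rank 351) and 149 in replicate 2 (rank 127). The genes rpl-24.1 and rps-10 share 1 region at rank 497. Several members of this list were strong in the pooled list and weak in replicate 1, among them rpl-28 (rank 20657 there), rpl-21 (rank 20054) and rps-15 (rank 18854), and rpl-22 and rpl-43 overlapped no region of replicate 1. Of the mitochondrial ribosomal protein genes 11 of 30 (36.7%) had a region, led by mrpl-39 (rank 376), mrpl-45 (rank 561), mrps-34 (rank 567) and mrpl-12 (rank 749).

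Translation factors had 9 of 25 (36.0%), against 9.68% of all genes with a facing neighbour. Highest were erfa-3, a release factor (rank 182, signal 200), iff-2, an initiation factor 5A gene (rank 204), eef-1G (rank 437) and eif-3.D (rank 538). The aminoacyl-tRNA synthetases, which charge tRNAs, had 4 of 15 (26.7%), namely ears-2, tars-1 (rank 540), nars-1 (rank 1067) and mars-1 (rank 1774). Splicing and snRNP proteins had 14 of 45 (31.1%), led by snr-1, lsm-3 (rank 241), and rsp-1 and rsp-2, a head-to-head pair of SR protein genes (rank 369, signal 137). That pair ranked 1420 in replicate 1. The region of lsm-3 has mdt-9, a gene listed under Mediator, among its further genes, while its nearest genes are Y62E10A.20 and Y62E10A.23.

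Respiratory chain genes had 9 of 35 (25.7%), against 9.68% of all genes with a facing neighbour. They were led by ndua-2, cox-6B (rank 568, signal 114), nduf-2.2 (rank 618) and atp-2, the beta subunit of ATP synthase (rank 872). Nuclear pore and transport genes had 8 of 25 (32.0%), led by npp-6 (rank 199), ima-1, an importin alpha (rank 213), npp-14 (rank 229) and ran-3 (rank 657). Chromatin regulators had 9 of 25 (36.0%), led by lin-35, the worm Rb homolog (rank 322, signal 150), lin-53 (rank 485), jmjd-1.2 (rank 557) and hda-1, a histone deacetylase (rank 590). The region of lin-35 is shared with vps-51 and ranked 217 in replicate 1 and 539 in replicate 2.

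Cell cycle and division genes had 16 of 73 (21.9%), against 9.68% of all genes with a facing neighbour. They were led by sas-5 (rank 187) and spd-5 (rank 199), both needed for centrosomes, cdk-9 (rank 388) and knl-3 (rank 463), a kinetochore protein. The list of RNA polymerase, Mediator and Integrator genes had 7 of 34 (20.6%), led by mdt-9, cdk-9, mdt-22 (rank 403) and taf-4 (rank 576), with cdk-9 in both lists. This list is wider than its name, since taf-4 is annotated as a TFIID subunit. The annotation of cdk-9, a putative cyclin-dependent kinase, does not settle which of those lists it belongs to. The product annotated for mdt-9 is a guanine nucleotide exchange factor. Vesicle and Golgi transport genes had 13 of 72 (18.1%), led by snx-13, the small GTPase gene rab-7 (rank 227), vps-51 and arf-6 (rank 345). Ubiquitin pathway genes had 5 of 36 (13.9%, 6.08% to 28.7%), an interval that includes the share of all genes with a facing neighbour. Highest were uba-5 (rank 168), ubr-4 (rank 461), fbxl-3 (rank 512) and ubc-6 (rank 1724). The product annotated for fbxl-3 is a putative RNA-binding protein. Proteasome genes had 2 of 24 (8.33%), rpn-7 (rank 262, signal 169) and rpn-3 (rank 1158). The proteasome count was 1 of 24 (4.17%) without replicate 1 and 3 of 24 (12.5%) without replicate 2, so on which side of the share of all genes it falls depends on the library.

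Histone genes are often head to head, with 66 of 72 having a facing neighbour. Of the 66, 6 (9.09%) had a strong divergent region, near the 9.68% of all genes with a facing neighbour. They form 3 pairs. These were his-67/his-68 (rank 157, signal 213), his-31/his-32 (rank 431, signal 127) and his-2/his-1 (rank 2550, signal 62.6). Histone genes have near-identical copies, and how reads that fit several copies were placed is not stated in what was used here, so these values are uncertain. In all, 7 regions had genes of 1 list on both strands. Besides the 3 histone pairs these were rsp-1/rsp-2, rps-10/rpl-24.1, hsp-16.2/hsp-16.41 and mrpl-1/mrps-24.

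Counts in the other families were small, and the share over all genes with a facing neighbour was 9.68%. Chemoreceptor genes had 4 of 285 (1.40%, 0.547% to 3.55%) and C-type lectins 1 of 83 (1.20%, 0.213% to 6.51%), with both intervals below that share. The other intervals include it. Cuticle collagens had 1 of 50 (2.00%, 0.354% to 10.5%) and nuclear hormone receptors 1 of 46 (2.17%, 0.385% to 11.3%). Neuropeptide genes had 1 of 18 (5.56%, 0.988% to 25.8%) and homeobox ceh genes 1 of 10 (10%, 1.79% to 40.4%). Counts of 1 changed with the libraries used. The homeobox count was 0 with either replicate left out, those of neuropeptide and collagen genes were 0 without replicate 2, and those of lectins and nuclear hormone receptors were 2 without replicate 2. The chemoreceptors, lectins, collagens and nuclear hormone receptors also had fewer regions of any strength: a divergent region of any rank was present for 15.4% of the chemoreceptor genes, 8.43% of the lectins, 20% of the collagens and 6.52% of the nuclear hormone receptors, against 30.4% of all 5818 genes, 62.5% of the chaperones and 77.4% of the cytoplasmic ribosomal protein genes. The chemoreceptor genes were sre-1, sri-5 (rank 228), srh-16 (rank 356) and srz-42 (rank 1734). Some family members share the region with a gene of another kind. The lectin gene clec-53 faces uba-5 (rank 168), and the collagen gene col-38 faces rpl-5 (rank 2495). The others were nhr-142 (rank 495), nlp-4 (rank 1045) and ceh-92 (rank 2446).

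**Figure D5:**
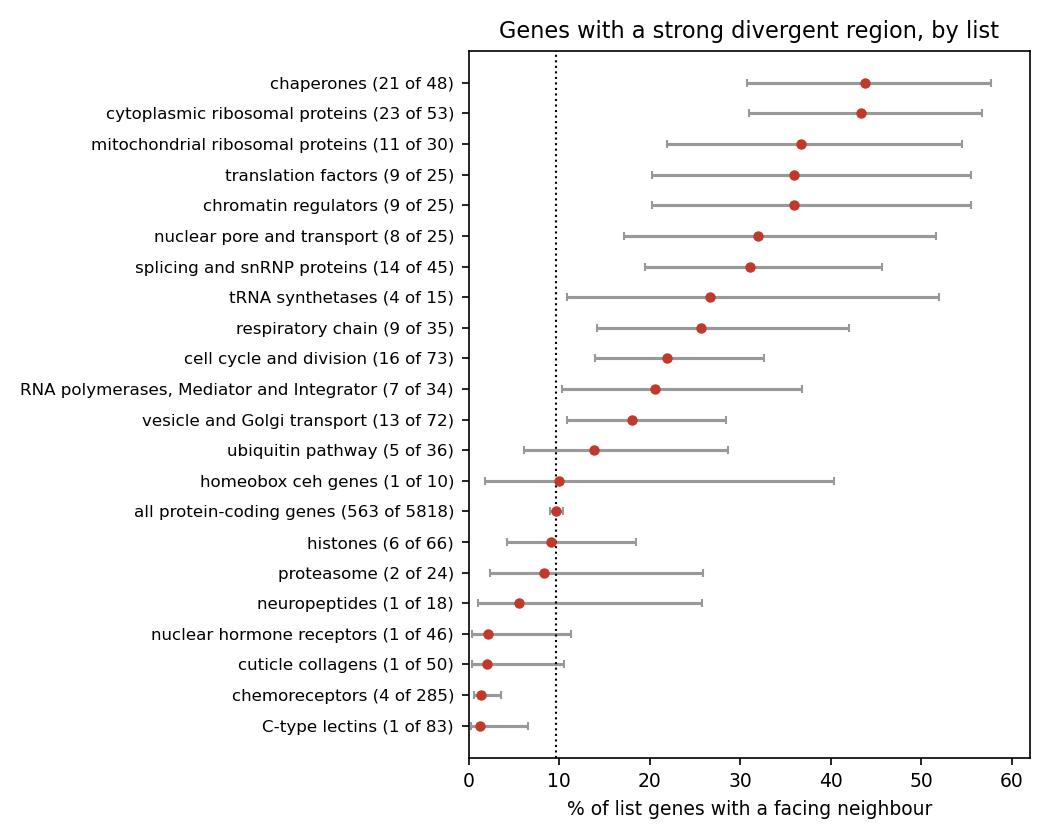
Share of the genes of each list with a facing neighbour that had a strong divergent region upstream (x axis, %), with Wilson 95% intervals and the counts beside each name, for lists with at least 10 such genes. The dotted line is the 9.68% of all 5818 coding genes with a facing neighbour. Chaperones and cytoplasmic ribosomal proteins are at the top and C-type lectins at the bottom.

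Muscle genes, the class for which PAT-9 is known, seldom have a divergent promoter. On 4 muscle lists (sarcomere, attachment, receptors and channels, myogenic factors) 9 of 112 genes (8.04%) had a facing neighbour, against 5818 of 19973 coding genes (29.1%), and of 17 basement membrane genes 0 did. Of the 9, 1 had a strong divergent region, pat-10, which encodes the troponin C of body wall muscle. Without replicate 1 there was also 1 gene of the receptors and channels. The region lies 109 bp from pat-10 and 585 bp from C46H11.6, with a signal of 169 in the pooled list (rank 259), 63.5 in replicate 1 (rank 280) and 105 in replicate 2 (rank 271). The paramyosin gene unc-15 had its strongest upstream region at rank 240 and unc-36 at rank 774, both at positions upstream of 1 strand only. The best region was at rank 3196 for dys-1, 9310 for sup-9, whose region is divergent, and 10237 for uig-1, while ketn-1, unc-38 and mls-1 had none upstream within 1000 bp. With 9 genes these lists cannot be set against the others.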

How the data were processed

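The authors deposited regions (narrowPeak, ce11) for each of the 2 replicates and for both pooled, 30000 each, and an optimal list of 735, per the file descriptions. Regions were called against a control, which was not analysed here. Aligner, caller and the cutoff of the reproducibility filter: not given in the sources used here. Per region, the authors' deposited signal value was used only to rank and describe regions. The deposited −log10 q was used for nothing. The lists give no read depth, and with 2 replicates precision is limited.

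Coding 5′ ends came from Ensembl release 115 (WBcel235, the same assembly as ce11) and bases from the matching RefSeq assembly. No region ran past the end of its chromosome. Regions matched between lists by an overlap of at least 1 bp, taking the strongest match. GC and words were counted in windows of 50 bp to either side of the summit and of points 200 bp to its left and right. Intervals are Wilson 95% intervals. There is 1 group, so no test between groups was made and no p-value is given. Named were both genes of the 20 strongest members, up to 4 genes per list by signal and 3 regions on each side of the threshold. The members, the 26 gene lists and the 15 motifs were chosen with earlier results of these data known. Of the list symbols 2 (tmd-1 and obsc-1) had no match. The classification was tested on simulated data, where 0 of 2000 positions differed from a direct search, and a planted word was found in all 100 windows that held it.

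Alternatives were 1500 or 6000 strong regions, the optimal list, upstream limits of 500 and 1500 bp, the outermost start of each gene, a small RNA distance of 500 bp, each replicate's list alone, starts at most 1000 bp apart, summits within 100 bp, and windows of 25 or 100 bp to either side. Python 3.11.15, NumPy 2.4.6, SciPy 1.17.1 and matplotlib 3.10.9 were used.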

Additional observations from a re-analysis of the deposited data

How the results depend on the processing

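No paired analysis was possible because there is only 1 group and no test. The number of strong divergent regions was 182 with 1500 strong regions and 105 with the optimal list, both lists being shorter by construction, and 230 to 264 with 1 replicate left out. Divergent regions were 27.9%, 18.6%, 33.9% and 20.8% of promoter regions with 1500 and 6000 strong regions, the optimal list and a limit of 500 bp, and 21.5% to 22.3% with 1 replicate left out. Facing starts with a strong region were 6.34%, 12.9% and 3.69% with 1500 and 6000 regions and the optimal list, 12.1% for starts at most 1000 bp apart, and 7.60% to 9.04% with 1 replicate left out. With summits within 100 bp, 60.9% of regions were found in replicate 1. Median GC in windows of 25 bp to either side was 49.0%, against 49.0% in single-gene regions and 41.2% over all pooled regions. In 100 bp to either side it was 40.3%, against 44.8% in single-gene, 37.8% in weaker divergent and 40.3% in all pooled regions. The contrast with all pooled regions is thus limited to the narrower windows. With 1 replicate left out median GC in 50 bp to either side was 44.6% to 46.5%. The median position was 0.502 to 0.512 with 1 replicate left out. The share on X was 2.75% and 2.78% with 1500 and 6000 regions and 3.04% to 3.41% with 1 replicate left out, against 18.6% to 23.4% of single-gene regions. The GC box was in 13.0% of the strong divergent regions in replicate 1 alone and 12.1% in replicate 2 alone, against 7.15% and 8.81% of single-gene regions. In replicate 1 alone the shares of ribosomal protein genes and chaperones were 32.1% and 35.4%, against 8.04% of all genes with a facing neighbour. The cause of these shifts was not tested.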
